A study of Mus musculus with 13 samples.

Results

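The levels of 10 genes of brain endothelial cells were followed in the right hemisphere of 13 mice: Cldn5, Esam, Cdh5, Pecam1, Kdr, Flt1, Tek, Aplnr, Slc2a1 and Mfsd2a. They were listed by name as endothelial and blood-brain barrier genes, with no threshold on their values but with earlier results of these data known, from a table of estimated counts for 48795 genes, and each of the 10 was found once and passed the filter on low counts. The hemispheres, without olfactory bulb and cerebellum, were taken at postnatal day 11 (P11) from mice of strain background C57BL/6J. The 5 control mice had the genotype NexCre -/- YAP5SAnls +/- and so carried the transgene without Cre. The 5 nlsYAP5SA mice had the genotype NexCre +/- YAP5SAnls +/-. The third group was 3 wild type (WT) C57BL/6 mice, collected in addition at the same age. nlsYAP5SA is a nuclear, active form of the transcriptional cofactor YAP1, and the mice that express it form ependymoma-like brain tumours. NEX-Cre directs recombination to neuronal precursors that express NEX (NeuroD6), a lineage that does not include endothelial cells. Per the study's methods the control and nlsYAP5SA mice were littermates and came from 2 matings. The labels tell neither the litter nor the sex of a mouse, so litter could not enter a fit and the mice were treated as independent.

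Endothelial cells of the brain are sealed to each other by tight and adherens junctions, carry few vesicles across the cell, and move glucose, amino acids and lipids by dedicated transporters. These traits make up the blood-brain barrier, which is induced and kept by Wnt ligands from neural cells and by pericytes on the vessel wall. Growth and branching of the vessels are directed by receptors for vascular endothelial growth factor (VEGF), angiopoietin and apelin, and new vessels in tumours can lose barrier traits. A hemisphere is a mixture of cells, and in such bulk RNA fewer endothelial cells and less RNA per endothelial cell cannot be told apart.

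Promoter sequence was held for 6 of the 10 genes in RefSeq (GRCm38.p6), and 4 are shown because they belong to the junction gene with the lowest adjusted p (Cldn5), both transporters (Slc2a1 and Mfsd2a) and the receptor with the most motif matches (Flt1). Pecam1, Cdh5, Aplnr and Esam had no entry, and Kdr and Tek are not shown. Each run is the stretch before the annotated start of the gene, written 5′ to 3′ on the strand of the gene: chr16:18776597-18776846 (+) for Cldn5, chr4:119108495-119108710 (+) for Slc2a1, chr4:122961189-122961438 (-) for Mfsd2a and chr5:147726012-147726261 (-) for Flt1. Capitals mark matches, on either strand, to 5 motifs: ACGTG (the core bound by hypoxia-inducible factors), GGAATG (TEAD, the DNA-binding partner of YAP1), CTTTGA (TCF/LEF, the factors of Wnt signalling), TATAAA (the TATA box) and AGGAAG (ETS factors, a family that includes regulators of endothelial genes).
Cldn5: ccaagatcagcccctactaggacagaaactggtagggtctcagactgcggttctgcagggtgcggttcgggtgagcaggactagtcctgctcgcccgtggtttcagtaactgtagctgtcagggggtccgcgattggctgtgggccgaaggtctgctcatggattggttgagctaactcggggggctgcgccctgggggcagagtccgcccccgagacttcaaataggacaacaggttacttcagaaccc
Slc2a1: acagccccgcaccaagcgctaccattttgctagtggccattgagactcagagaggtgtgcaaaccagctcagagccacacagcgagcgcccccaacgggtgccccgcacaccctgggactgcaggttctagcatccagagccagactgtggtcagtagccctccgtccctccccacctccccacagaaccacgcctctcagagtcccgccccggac
Mfsd2a: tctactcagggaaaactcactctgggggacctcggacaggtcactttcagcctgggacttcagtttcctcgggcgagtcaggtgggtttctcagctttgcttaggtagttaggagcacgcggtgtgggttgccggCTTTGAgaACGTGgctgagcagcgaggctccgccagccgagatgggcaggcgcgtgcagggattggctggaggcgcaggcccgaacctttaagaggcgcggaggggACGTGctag
Flt1: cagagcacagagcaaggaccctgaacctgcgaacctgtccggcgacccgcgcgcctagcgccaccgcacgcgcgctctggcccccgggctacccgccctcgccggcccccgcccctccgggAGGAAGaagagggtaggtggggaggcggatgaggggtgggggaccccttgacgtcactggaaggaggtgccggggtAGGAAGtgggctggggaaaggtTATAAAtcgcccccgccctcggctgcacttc
The Mfsd2a stretch held ACGTG at 107 and at 9 bases before its end and CTTTGA at 115 bases before its end. The Flt1 stretch held AGGAAG at 129 and 53 bases and TATAAA at 31 bases before its end. None of the 5 motifs was found in the stretches of Cldn5, Slc2a1, Kdr and Tek, and GGAATG was in none of the 6. Among 32851 mouse promoters, the 250 bases before the start held ACGTG in 16.6%, GGAATG in 12.6%, CTTTGA in 13.8%, TATAAA in 12.4% and AGGAAG in 29.5%. The letters for ETS factors were added after the sequences had been seen. A match is a description of letters and was not tested against binding.

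Libraries held between 20871566 and 25524349 estimated counts, and no pair of replicates agreed within sampling noise. Y-linked RNA was present in all 5 controls and absent from nlsYAP5SA replicates 1, 2 and 5 and from 1 of the 3 C57BL/6 libraries. The summed level of 8 choroid plexus genes ran from 11.5 to 238 CPM in controls and from 13.9 to 312 CPM in nlsYAP5SA mice (CPM is a count relative to the library size, which was scaled by the TMM method). The lowest of the latter was nlsYAP5SA replicate 4. The summed level of 5 reactive astrocyte genes was 242 to 291 CPM in controls and 867 to 1130 CPM in nlsYAP5SA mice, and that of 7 microglial genes was 289 to 364 and 409 to 552 CPM. The summed level of 20 other endothelial identity genes was 252 to 304 CPM in controls. It was 244 to 315 CPM for nlsYAP5SA and 281 to 289 CPM for C57BL/6 mice, so the sum of this list overlapped in the 3 groups. Single genes can move in opposite directions within such a sum.

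In nlsYAP5SA mice the junction genes Cldn5 and Cdh5 and the apelin receptor gene Aplnr fell, and the glucose transporter gene Slc2a1 rose. A gene is called here when edgeR's quasi-likelihood test, adjusted after Benjamini-Hochberg over the 16315 genes tested, gave at most 0.05. By this rule 1 of the 10 genes was higher and 3 were lower in nlsYAP5SA than in control mice, where 10.8% of all genes tested were called, 7.36% higher and 3.44% lower. The median log2 fold change of the 10 genes was -0.24, against -0.01 over all genes. Fitted values were negative for 8 genes and positive for Slc2a1 and Mfsd2a. At an unadjusted p of 0.05 or less stood 8 of the 10, where 24.4% of all genes did. When libraries were scaled to the 20 endothelial identity genes instead of the whole library, all 10 genes kept their side of the threshold and their direction. That fit called 6.25% of all genes. The sums of that list overlapped between groups, so the scaling could move the values little, as for Tek from -0.34 to -0.32. The genotypes were also unequal in Y-linked RNA: with its level as a covariate Cldn5 alone of the 10 stayed called, in a fit that called 3.32% of all genes in place of 10.8%. Among the libraries that hold it (5 controls and nlsYAP5SA replicates 3 and 4, an analysis added after the data were seen) none of the 10 was called in edgeR's quasi-likelihood test, where 1.97% of all genes were. Calls were lost over the whole table in both Y-linked fits, and fitted sizes moved in both directions. With the covariate Slc2a1 was at 0.37 in place of 0.67 and Aplnr at -0.87 in place of -1.18. Pecam1 was at -0.47 in place of -0.30 and Cdh5 at -0.51 in place of -0.45.

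**Figure D1:**
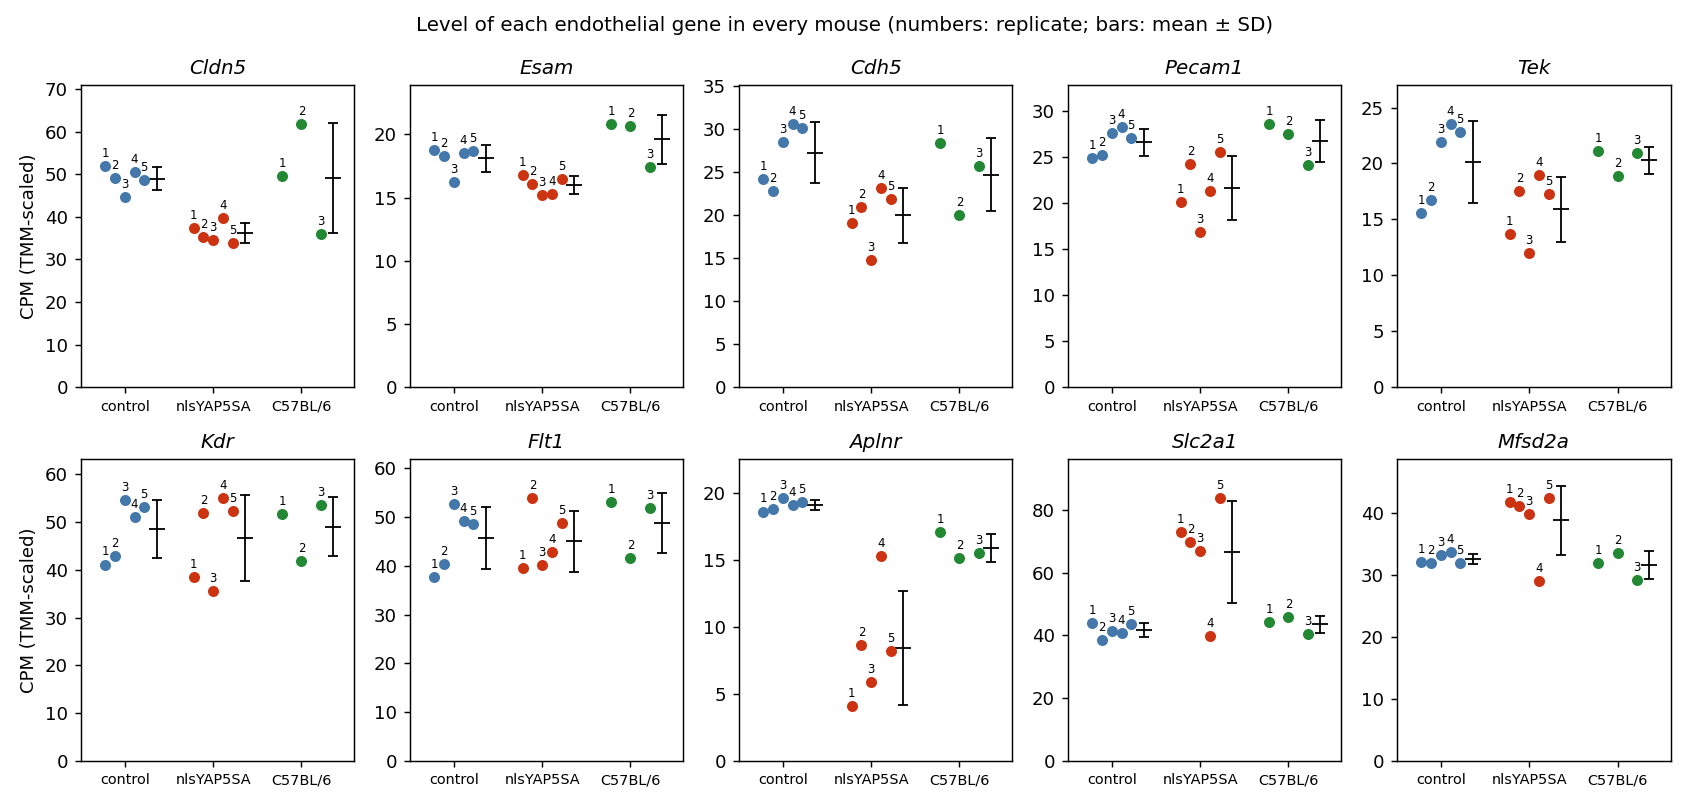
Level of the 10 endothelial genes in CPM (vertical axes, from 0) in each control, nlsYAP5SA and C57BL/6 mouse (horizontal axes). Points are mice numbered by replicate and bars are the mean ± SD. Every nlsYAP5SA mouse lies below every control mouse for Cldn5 and for Aplnr, while nlsYAP5SA replicate 4 lies among the controls for Slc2a1.

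The junction genes were taken first. Cldn5, which encodes claudin-5, the main claudin of the endothelial tight junction, stands at chromosome 16, 18776847 to 18778262 (GRCm38). Its level in controls 1 to 5 was 52.0, 49.2, 44.7, 50.4 and 48.6 CPM. In nlsYAP5SA mice 1 to 5 it was 37.4, 35.2, 34.5, 39.8 and 33.9 CPM. Every nlsYAP5SA mouse lay below every control mouse. The log2 fold change was -0.44 ± 0.06 (SE; 95% interval -0.57 to -0.31; n = 5 mice per group; edgeR adjusted p = 5.0e-04), which is 0.737-fold. The C57BL/6 mice lay at 49.5, 61.7 and 35.9 CPM, the widest spread of any group for this gene, with replicate 3 among the nlsYAP5SA mice. With the Y-linked level as a covariate the value was -0.40 (adjusted p = 0.0198), and among libraries with Y-linked RNA alone it was -0.40 (adjusted p = 0.0614).

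Cdh5 encodes VE-cadherin, the cadherin of endothelial adherens junctions, and lies at chromosome 8, 104101625 to 104144511. In controls 1 to 5 it was measured at 24.2, 22.8, 28.5, 30.5 and 30.1 CPM. In nlsYAP5SA mice 1 to 5 the level was 19.1, 20.9, 14.8, 23.1 and 21.8 CPM. The groups overlapped, since nlsYAP5SA replicate 4 lay above control replicate 2. Its log2 fold change was -0.45 ± 0.12 (SE; 95% interval -0.71 to -0.19; edgeR adjusted p = 0.0296). The call was the least firm of the 4: without control replicate 3, 4 or 5 in turn the adjusted p was 0.0519, 0.0838 and 0.0709, and it was lost as well without nlsYAP5SA replicate 1 or 2. With the choroid plexus level as a covariate Cdh5 was at -0.41 (adjusted p = 0.0763) and with the Y-linked level at -0.51 (adjusted p = 0.148), so the call was lost at a similar size of change.

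Pecam1, the adhesion molecule CD31 at endothelial cell contacts (chromosome 11, 106654217 to 106750628), was not called. Its level was 24.9 to 28.2 CPM in controls (median 27.0) and 16.8 to 25.5 CPM in nlsYAP5SA mice (median 21.3). Its log2 fold change was -0.30 ± 0.10 (SE; 95% interval -0.52 to -0.09; edgeR adjusted p = 0.0736). DESeq2's Wald test gave Pecam1 an adjusted p of 0.0373. Esam, an adhesion molecule of endothelial tight junctions (chromosome 9, 37528078 to 37538319), had the narrowest range of the junction genes on the CPM scale, with 16.2 to 18.8 CPM in controls and 15.2 to 16.8 CPM in nlsYAP5SA mice. Its log2 fold change was -0.18 ± 0.07 (SE; 95% interval -0.33 to -0.04; edgeR adjusted p = 0.109). The overlap rested on control replicate 3, at 16.2 CPM, and without that mouse Esam had an adjusted p of 0.0453.

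Among the receptors, the pair for VEGF did not change detectably and the receptor for apelin showed the largest change of the 10 genes. Kdr, the main signalling receptor for VEGF-A (chromosome 5, 75932827 to 75978458), was at 41.1 to 54.6 CPM in controls and 35.5 to 55.0 CPM in nlsYAP5SA mice. Kdr had a log2 fold change of -0.06 ± 0.13 (SE; 95% interval -0.33 to 0.22; edgeR adjusted p = 0.824). Flt1, which binds VEGF-A and limits its signal through Kdr (chromosome 5, 147561604 to 147726011), was at 37.8 to 52.7 CPM in controls and 39.5 to 53.9 CPM in nlsYAP5SA mice. Its log2 fold change was -0.02 ± 0.11 (SE; 95% interval -0.25 to 0.21; edgeR adjusted p = 0.925). The sign of both small values turned under some alternatives.

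Tek, the receptor TIE2 for angiopoietins (chromosome 4, 94739289 to 94874976), was at 15.6, 16.7, 21.9, 23.5 and 22.8 CPM in controls 1 to 5. In nlsYAP5SA mice 1 to 5 it was at 13.7, 17.5, 12, 19.0 and 17.3 CPM. The groups overlapped, and the log2 fold change was -0.34 ± 0.15 (SE; 95% interval -0.65 to -0.02; edgeR adjusted p = 0.179). Control replicates 1 and 2 were the lowest controls for Tek, Cdh5, Pecam1, Kdr and Flt1 alike, with Pecam1 at 24.9 and 25.2 CPM against 27.0 or more. The summed level of the 20 endothelial identity genes was also lowest in them, at 256 and 252 CPM against 293 or more in the other controls. The same held for several other marker lists, at 3105 and 3614 CPM against 4803 or more for astrocyte genes, 2379 and 2434 against 2880 or more for excitatory neuron genes, 2080 and 1942 against 3069 or more for oligodendrocyte genes, 293 and 289 against 339 or more for microglial genes and 416 and 455 against 478 or more for pericyte genes. They had the highest levels of erythroid genes, at 596 and 411 CPM against 278 or less. The part of these levels in the 5 genes was not tested.

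Aplnr encodes the receptor for apelin, a receptor of growing and venous endothelium, and lies at chromosome 2, 85136225 to 85139923. Controls 1 to 5 held 18.6, 18.8, 19.6, 19.1 and 19.3 CPM, a spread of 0.377 CPM (SD). The nlsYAP5SA mice 1 to 5 held 4.06, 8.66, 5.85, 15.3 and 8.19 CPM, from 90 to 353 counts. No nlsYAP5SA mouse reached the lowest control, and their spread of 4.29 CPM (SD) was far wider than that of the controls. The log2 fold change of Aplnr was -1.18 ± 0.26 (SE; 95% interval -1.74 to -0.62; edgeR adjusted p = 0.0101), which is 0.441-fold. The highest of the group was replicate 4, and without it the log2 fold change was -1.52 (adjusted p = 2.5e-04). With the Y-linked level as a covariate Aplnr was at -0.87 (adjusted p = 0.224), and among libraries with Y-linked RNA alone at -0.86 (adjusted p = 0.238). Replicate 4 is 1 of only 2 nlsYAP5SA mice with Y-linked RNA, and the other, replicate 3, was at -1.71 relative to the mean of the controls where replicate 4 was at -0.32.

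The fitted values of the transporters were positive and those of the junction genes and receptors negative. Of the transporters only Slc2a1 was called, and the signs of Kdr and Flt1 turned under some alternatives. Slc2a1 encodes GLUT1, the glucose transporter of the barrier, which astrocytes and choroid plexus epithelium also make (chromosome 4, 119108711 to 119137983). It was at 44.0, 38.6, 41.3, 40.7 and 43.7 CPM in controls 1 to 5. In nlsYAP5SA mice 1 to 5 it was at 72.9, 69.8, 66.8, 39.8 and 83.8 CPM. Replicates 1, 2, 3 and 5 were each above every control mouse and replicate 4 was within the range of the controls. The log2 fold change of Slc2a1 was 0.67 ± 0.15 (SE; 95% interval 0.35 to 1.0; edgeR adjusted p = 0.0109), which is 1.6-fold, and without nlsYAP5SA replicate 4 it was 0.81. It was 0.53 (adjusted p = 0.0436) with the choroid plexus level as a covariate and 0.37 (adjusted p = 0.299) with the Y-linked level. An antisense gene, Gm12868, shares 105 of the 3506 exon bases of Slc2a1 and reached at most 0.135 CPM.

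Mfsd2a encodes the lipid transporter that carries docosahexaenoic acid into the brain and holds back vesicle transport across the endothelium (chromosome 4, 122946850 to 122961188). Controls 1 to 5 held 32.1, 32.0, 33.2, 33.7 and 32.0 CPM. The nlsYAP5SA mice 1 to 5 held 41.7, 41.2, 39.9, 29.0 and 42.4 CPM. As for Slc2a1, replicates 1, 2, 3 and 5 were above every control mouse, and replicate 4 was below every control mouse. Mfsd2a had a log2 fold change of 0.25 ± 0.09 (SE; 95% interval 0.05 to 0.44; edgeR adjusted p = 0.104), so the gene was not called. Without nlsYAP5SA replicate 4 it was 0.34 (adjusted p = 7.6e-04), and with the Y-linked level as a covariate it was 0.09 (adjusted p = 0.812). In the count of genes whose groups do not overlap, 2 of the 10 genes were lower in every nlsYAP5SA mouse, Cldn5 and Aplnr, and 0 were higher. Over all genes tested these shares were 3.57% and 6.5%.

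The 3 C57BL/6 mice were compared with the controls. Neither group expresses nlsYAP5SA, but they differ in the transgene and in litter. None of the 10 was called between C57BL/6 and control mice in edgeR's quasi-likelihood test, where 0.169% of all genes were (0.0484% higher and 0.121% lower), and DESeq2 called none either, with 0.357% of all genes called. Before adjustment 1 gene was at or under 0.05, where 3.78% of all genes were. This was Aplnr, at 17.1, 15.1 and 15.5 CPM in the C57BL/6 mice. It was below every control mouse, with a log2 fold change of -0.26 ± 0.07 (SE; unadjusted p = 0.00413; edgeR adjusted p = 0.609). Of all genes, 1.39% were lower in this way without overlap and 1.95% were higher, a set that held none of the 10. The median log2 fold change of the 10 genes was 0.01 against 0.00 over all genes.

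Against the C57BL/6 mice, which is a smaller comparison that shares its nlsYAP5SA mice with the one above, none of the 10 genes was called by edgeR's quasi-likelihood test, where 6.38% of all genes were (4.16% higher and 2.22% lower). DESeq2's Wald test called 4 of the 10 and 9.59% of all genes. Before adjustment 7 were at or under 0.05 in edgeR, where 21.0% of all genes were. The log2 fold change was -0.93 ± 0.33 for Aplnr (edgeR adjusted p = 0.134), 0.60 ± 0.19 for Slc2a1 (adjusted p = 0.108) and -0.45 ± 0.14 for Cldn5 (adjusted p = 0.1). Esam had the lowest adjusted p, 0.057, with a log2 fold change of -0.31 ± 0.08 (SE), and each nlsYAP5SA mouse was below each C57BL/6 mouse, as 6.47% of all genes were. None of the 10 was above every C57BL/6 mouse in each nlsYAP5SA mouse, as 8.71% of all genes were. For Kdr and Flt1 the 95% intervals were -0.43 to 0.26 and -0.40 to 0.14.

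**Figure D2:**
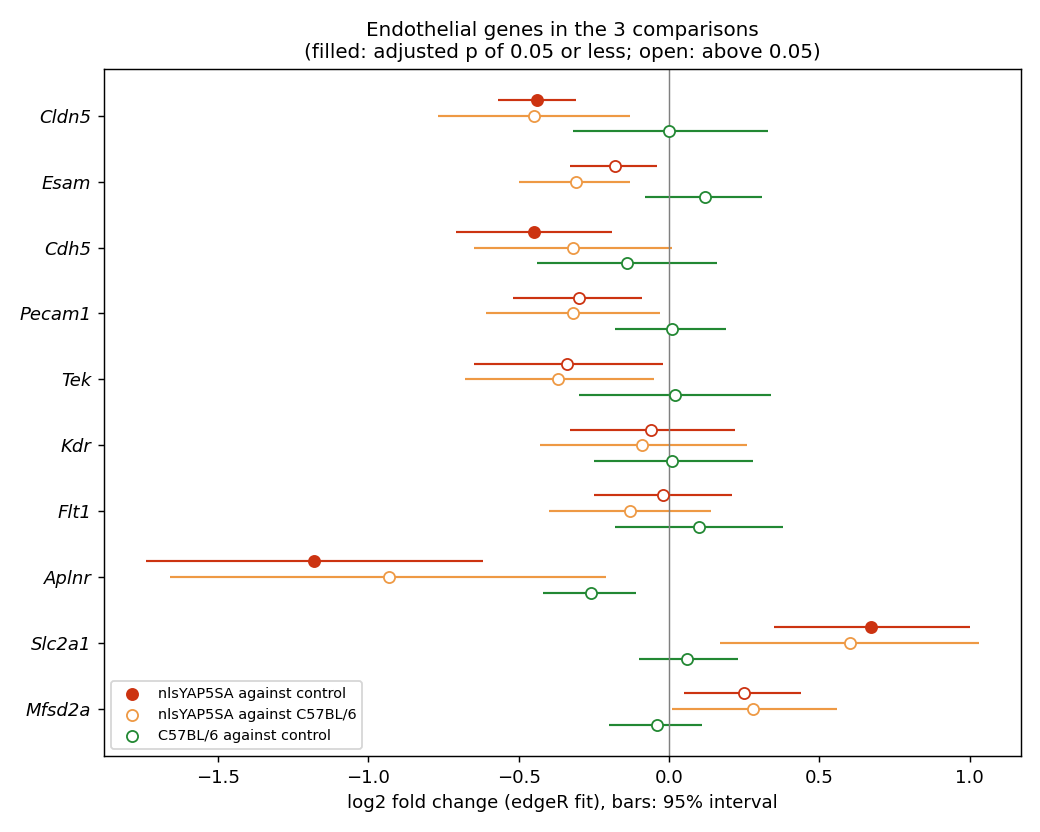
Log2 fold change (horizontal axis) of the 10 endothelial genes (vertical axis) in 3 comparisons, from edgeR, with 95% intervals as bars. Filled points have an adjusted p of 0.05 or less. Cldn5, Cdh5, Aplnr and Slc2a1 are filled in nlsYAP5SA against control, at -0.44, -0.45, -1.18 and 0.67, and no point is filled in the other comparisons.

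Levels can be compared between genes once they are divided by exon length, here as CPM per kilobase of all annotated exons. In controls Cldn5 had the highest such level, 34.6 ± 1.91 (SD, n = 5), followed by Mfsd2a at 14.5 ± 0.361 and Slc2a1 at 11.9 ± 0.640. The ranges of these 3 genes over the controls did not overlap. Cdh5 (6.47 ± 0.835), Esam (6.31 ± 0.376), Kdr (5.37 ± 0.682) and Aplnr (5.16 ± 0.102) came next, and neighbours in this order overlapped. Pecam1 (4.27 ± 0.237), Tek (4.26 ± 0.780) and Flt1 (3.39 ± 0.466) were the lowest. In nlsYAP5SA mice Slc2a1 stood at rank 2, at 19.0 ± 4.66, and Mfsd2a at rank 3, at 17.3 ± 2.48 CPM per kilobase, with overlapping ranges. Aplnr went from rank 7 in controls to rank 10 in nlsYAP5SA mice, at 2.28 ± 1.16 CPM per kilobase, and stood at rank 8 in C57BL/6 mice. With the length of the longest transcript instead, Flt1 in controls was at 6.63 and Kdr at 8.19 CPM per kilobase, so the order of the lower genes depends on which exons are counted.

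Other vascular genes were read from the same test. Of 145 genes in 12 lists, 141 were tested, 20 were higher and 18 were lower in nlsYAP5SA mice, which is 27.0% called against 10.8% of all genes, with a median log2 fold change of 0.03. With the Y-linked level as a covariate the count of 38 was 14, in the fit that called 3.32% of all genes. The endothelial identity list held 1 higher and 3 lower of 20, with a median of -0.09. At an unadjusted p of 0.05 or less in edgeR's quasi-likelihood test stood 11 of the 20, where 24.4% of all genes did. Tie1, the partner receptor of Tek, fell by 0.57 on the log2 scale (adjusted p = 0.0111), from 15.9 to 17.6 CPM in controls to 9.03 to 14.6 CPM. Icam2, an endothelial adhesion molecule, fell by 0.64 (adjusted p = 0.0201) and Eng, a co-receptor for TGF-beta ligands, by 0.29 (adjusted p = 0.0358). Ly6a, whose counts are uncertain because near-identical Ly6 genes share reads, rose by 0.80 (adjusted p = 0.0229). The other genes of the list did not pass and ran from -0.38 for Sox18 (adjusted p = 0.0632) to 0.49 for Vwf (adjusted p = 0.119), and of the 20 fitted values 7 were positive and 13 negative. With the Y-linked covariate none of the 20 was called by edgeR's quasi-likelihood test, with Tie1 at -0.60 (adjusted p = 0.109), Icam2 at -0.58 (adjusted p = 0.238), Eng at -0.35 (adjusted p = 0.12) and Ly6a at 0.57 (adjusted p = 0.352). The fitted decreases of the former 3 were thus of similar size. Of 21 alternatives, the call of Eng held in 10, that of Ly6a in 14 and that of Icam2 in 15.

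The apelin axis was lower at ligand and receptor. Apln, the ligand of Aplnr, lies on chromosome X, as do Vegfd and Slc38a5 below. Apln was at 27.0, 29.2, 31.8, 31.9 and 31.2 CPM in controls 1 to 5. In nlsYAP5SA mice 1 to 5 it was at 11.6, 16.8, 13.3, 17.8 and 15.3 CPM. The groups were well apart, also in replicate 4, and the log2 fold change of Apln was -1.02 ± 0.11 (SE; edgeR adjusted p = 6.4e-05). Unlike Aplnr, Apln was also called with the Y-linked level as a covariate (-0.96, adjusted p = 0.00369) and among the libraries with Y-linked RNA (-0.96, adjusted p = 0.00492). In the list of VEGF, angiopoietin and apelin partners, 2 of 14 genes tested were higher and 1 was lower. Vegfd, a ligand of the VEGF family, rose by 1.56 (adjusted p = 6.3e-04), from 1.23 to 1.76 CPM in controls to 2.22 to 5.56 CPM. Angpt1, the angiopoietin that activates Tek, rose by 0.48 (adjusted p = 0.00336). Vegfd stayed called with the Y-linked covariate (1.26, adjusted p = 0.0194) but not among libraries with Y-linked RNA alone (1.25, adjusted p = 0.076), and Angpt1 did not with the covariate (0.46, adjusted p = 0.0619). Vegfa, the ligand of Kdr and Flt1, which was added after its value was seen, had a log2 fold change of -0.02 ± 0.07 (SE; edgeR adjusted p = 0.868).

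Barrier transporters other than Slc2a1 and Mfsd2a went both ways, with 2 higher and 3 lower of 16 and a median of 0.01. Slc38a5, a glutamine transporter of growing vessels, had the largest decrease, by 1.28 (adjusted p = 0.0161). It was at 11.2, 8.72, 11.2, 10.5 and 10.4 CPM in controls 1 to 5 and at 2.62, 3.81, 2.34, 9.21 and 3.46 CPM in nlsYAP5SA mice 1 to 5, so that replicate 4 was again at the level of the controls. Slco1c1, which carries thyroid hormone, fell by 0.50 (adjusted p = 0.00136). Abcc4, an export pump, rose by 0.62 (adjusted p = 0.0182) and Slco2b1, an organic anion transporter, by 0.55 (adjusted p = 9.9e-04). With the Y-linked covariate Slco2b1 stayed called (0.40, adjusted p = 0.0333; among libraries with Y-linked RNA alone 0.38, adjusted p = 0.109), while Slc38a5 was at -0.88 (adjusted p = 0.295), Abcc4 at 0.27 (adjusted p = 0.453) and Slco1c1 at -0.43 (adjusted p = 0.0513). The call of Abcc4 held in 15 of 21 alternatives. Among tight and adherens junction genes 1 of 11 tested was higher and 0 were lower. That is 9.09%, near the 10.8% of all genes called. At an unadjusted p of 0.05 or less in edgeR's quasi-likelihood test stood 3 of the 11, where 24.4% of all genes did. The called gene was F11r, which encodes the junctional adhesion molecule JAM-A and rose by 0.49 (adjusted p = 0.0106). It was at 0.35 (adjusted p = 0.233) with the Y-linked covariate. Epithelial cells make F11r as well.

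The caveolae list had the highest share of called genes, with 4 higher and 0 lower of 8 and a median of 0.39. Cavin1, which builds the coat of caveolae, rose by 0.72 (adjusted p = 6.3e-05), with 24.4 to 27.2 CPM in controls and 36.2 to 48.5 CPM in nlsYAP5SA mice and no overlap. Cavin2, another coat protein, rose by 0.57 (adjusted p = 0.00276). Ehd2 and Ehd4, ATPases of membrane traffic, rose by 0.56 and 0.45 (adjusted p = 0.00759 and 9.7e-04). With the Y-linked covariate Cavin1 and Ehd4 stayed called, at 0.56 and 0.44 (adjusted p = 0.00101 and 0.0221), and Cavin2 and Ehd2 did not, at 0.41 and 0.47 (adjusted p = 0.0915 and 0.145). Among libraries with Y-linked RNA alone Cavin1 was called (0.54, adjusted p = 0.00814) and Ehd4 was not (0.43, adjusted p = 0.0691). Plvap, the diaphragm protein of fenestrae and caveolae in leaky endothelium, was at -0.09 ± 0.10 (SE; adjusted p = 0.638) and Cav1, the scaffold of caveolae, at 0.32 ± 0.11 (adjusted p = 0.0729). Smooth muscle cells and glia also make caveolae genes.

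In the Wnt/beta-catenin barrier programme 1 of 14 genes was higher and 3 were lower, with a median of -0.04. The transcription factor genes Foxf2 and Foxq1 fell by 0.61 and 0.54 (adjusted p = 0.00705 and 0.0161), and Apcdd1, a target of Wnt signalling, by 0.21 (adjusted p = 0.0445). Reck, which presents Wnt7 ligands to endothelial cells, rose by 0.45 (adjusted p = 0.0252). The ligand genes Wnt7a and Wnt7b were at -0.16 and 0.09 (adjusted p = 0.334 and 0.588). With the Y-linked covariate none of the 14 was called by edgeR's quasi-likelihood test although the fitted values were close to those above, at -0.59 for Foxf2, -0.62 for Foxq1, 0.47 for Reck and -0.20 for Apcdd1 (adjusted p = 0.108, 0.091, 0.165 and 0.314). Of 21 alternatives, the call of Apcdd1 held in 4 and that of Reck in 12.

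Among tip cell and sprouting genes, 1 of 12 tested was higher and 2 were lower, with a median of 0.03. Unc5b and the Notch ligand gene Dll4 fell by 0.45 and 0.42 (adjusted p = 0.00747 and 0.0448), and Plaur, the urokinase receptor gene, rose by 1.24 (adjusted p = 0.0116). None of these 3 stayed called with the Y-linked covariate, where Unc5b was at -0.48, Dll4 at -0.44 and Plaur at 0.86 (adjusted p = 0.0739, 0.26 and 0.257), and the call of Dll4 held in 6 of 21 alternatives. Of 9 arterial genes 1 was lower, Gkn3, by 1.84 (adjusted p = 0.0376), and 0 were higher. That is 11.1% of the list, near the 10.8% of all genes called. Gkn3 was at 0.875 to 1.60 CPM in controls and 0.0866 to 0.999 CPM in nlsYAP5SA mice, from 2 to 23 counts in the latter, which reaches under the detection limit of 3 counts. With the Y-linked covariate it was at -1.16 (adjusted p = 0.437). The call of Gkn3 held in 9 of 20 alternatives, and with a mouse left out its log2 fold change ran from -2.94 (without nlsYAP5SA replicate 4, adjusted p = 3.7e-04) to -1.60. The median of the arterial list was -0.37.

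Genes of the cells on the vessel wall were read next. Of 12 pericyte genes 4 were lower and 0 were higher, with a median of -0.26. Rgs5, a regulator of G protein signals in pericytes, was at 184 to 235 CPM in controls and 108 to 183 CPM in nlsYAP5SA mice and fell by 0.58 (adjusted p = 0.012). Higd1b, Kcnj8 and Vtn fell by 0.64, 0.50 and 0.39 (adjusted p = 0.0387, 0.036 and 0.00236), while Pdgfrb, the pericyte growth factor receptor, was at -0.02 ± 0.13 (SE; adjusted p = 0.954). Vtn stayed called with the Y-linked covariate (-0.45, adjusted p = 0.0161). Rgs5, Higd1b and Kcnj8 did not, at -0.60, -0.48 and -0.53 (adjusted p = 0.124, 0.424 and 0.222). The calls of Higd1b and Kcnj8 held in 6 and 9 of 21 alternatives. In the vascular smooth muscle list 3 of 8 were higher and 0 were lower, with a median of 0.33. Cnn1, Acta2 and Tagln, genes of the contractile apparatus that other cells with active YAP1 can also express, rose by 2.88, 1.23 and 1.09 (adjusted p = 2.0e-05, 5.1e-04 and 6.3e-05). All 3 stayed called with the Y-linked covariate, while among libraries with Y-linked RNA alone Acta2 was at 1.10 (adjusted p = 0.0539) and Cnn1 and Tagln were called.

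Of 9 tested venous and endothelial activation genes 3 were higher and 0 were lower, with a median of -0.04. Icam1, an adhesion molecule for leukocytes, rose by 0.91 (adjusted p = 8.8e-04). Selp, which encodes P-selectin, rose from 1 to 3 counts in controls, at or under the detection limit of 3 counts, to 12 to 15 counts in nlsYAP5SA mice (adjusted p = 6.9e-05). Lcn2 rose from 1 to 5 counts to 13 to 122 counts (adjusted p = 3.1e-04). The fitted log2 fold changes, 3.09 for Selp and 4.93 for Lcn2, depend on the prior count of the fit at such levels and are not exact sizes. These 3 genes stayed called with the Y-linked covariate. Platelets hold Selp as well, and the summed level of 5 platelet genes was 18 to 25.6 CPM in controls and 14.4 to 22.4 CPM in nlsYAP5SA mice. Reactive astrocytes make Lcn2 as well, and the reactive astrocyte level given above was also higher in nlsYAP5SA mice. Their part in these results was not tested. Of 8 perivascular and meningeal fibroblast genes 2 were higher and 1 was lower, with a median of 0.19. Ogn and Col1a2 rose by 1.29 and 0.62 (adjusted p = 1.7e-05 and 0.0214) and Lum fell by 0.83 (adjusted p = 0.0151). Ogn stayed called with the Y-linked covariate (1.19, adjusted p = 5.2e-04) and Col1a2 and Lum did not, at 0.42 and -0.69 (adjusted p = 0.368 and 0.242). The call of Col1a2 held in 15 of 21 alternatives. The adjusted p values of these lists come from the same edgeR quasi-likelihood test and Benjamini-Hochberg adjustment as those of the 10 endothelial genes.

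**Figure D3:**
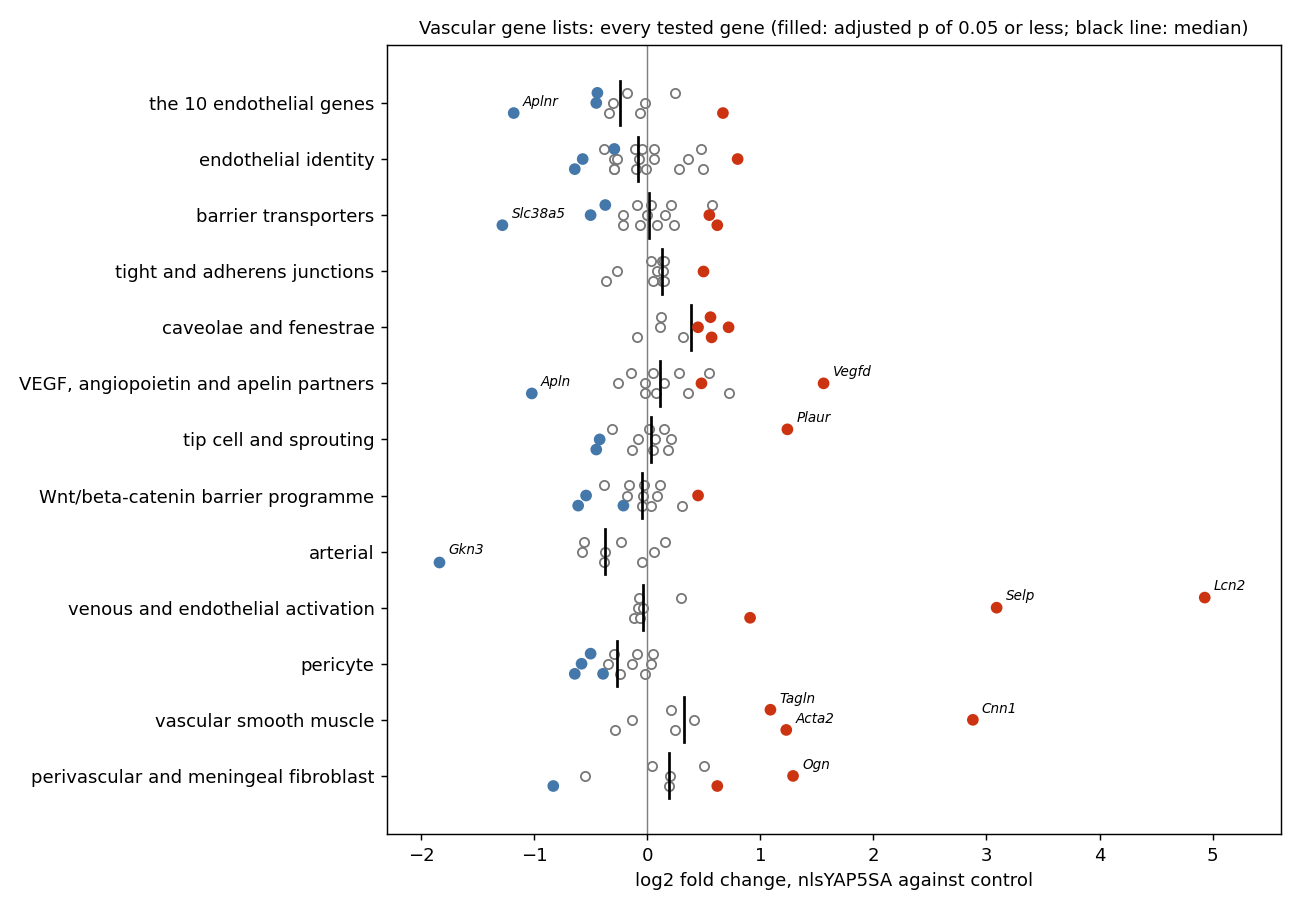
Log2 fold change in nlsYAP5SA against control mice (horizontal axis) of every tested gene of the 10 endothelial genes and 12 vascular lists (vertical axis, rows spread to separate points). Filled points have an adjusted p of 0.05 or less (red higher, blue lower), black lines are medians, and called genes beyond 1 in size are named. Caveolae and smooth muscle genes have the highest medians, 0.39 and 0.33, and arterial genes the lowest, -0.37.

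The vascular genes did not divide by group alone, since nlsYAP5SA replicate 4 lay near the controls for several of them. Relative to the mean of the controls on the log2 scale, that mouse was at -0.32 for Aplnr, -0.07 for Slc2a1, -0.17 for Mfsd2a, -0.18 for Slc38a5 and -0.16 for Ly6a. For the same genes the other nlsYAP5SA mice ranged from -2.23 to -1.14, 0.68 to 1.01, 0.29 to 0.38, -2.15 to -1.45 and 0.70 to 1.06. It did not lie near the controls for Apln (-0.76) or Cavin1 (0.63). The other nlsYAP5SA mouse with Y-linked RNA, replicate 3, was at -1.71 for Aplnr, 0.68 for Slc2a1 and -2.15 for Slc38a5, so of the 2 mice behind the Y-linked fits only replicate 4 lay near the controls for these genes. Its summed level of 6 genes used as a check of YAP1 activity was 191 CPM, where the group ranged from 161 to 201 CPM and controls from 91.7 to 102 CPM. The choroid plexus level of this mouse, 13.9 CPM, was the lowest of its group. The next lowest was nlsYAP5SA replicate 5, at 73.8 CPM, which had the highest Slc2a1 and Mfsd2a, and the part of the choroid plexus level in the values of replicate 4 was not tested. With the choroid plexus level as a covariate over all 10 mice the log2 fold change was -1.06 for Aplnr (adjusted p = 0.0167 in edgeR's quasi-likelihood test), 0.18 for Mfsd2a (adjusted p = 0.269), -1.17 for Slc38a5 (adjusted p = 0.0248) and 0.52 for Ly6a (adjusted p = 0.0637), beside the 0.53 given for Slc2a1.

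**Figure D4:**
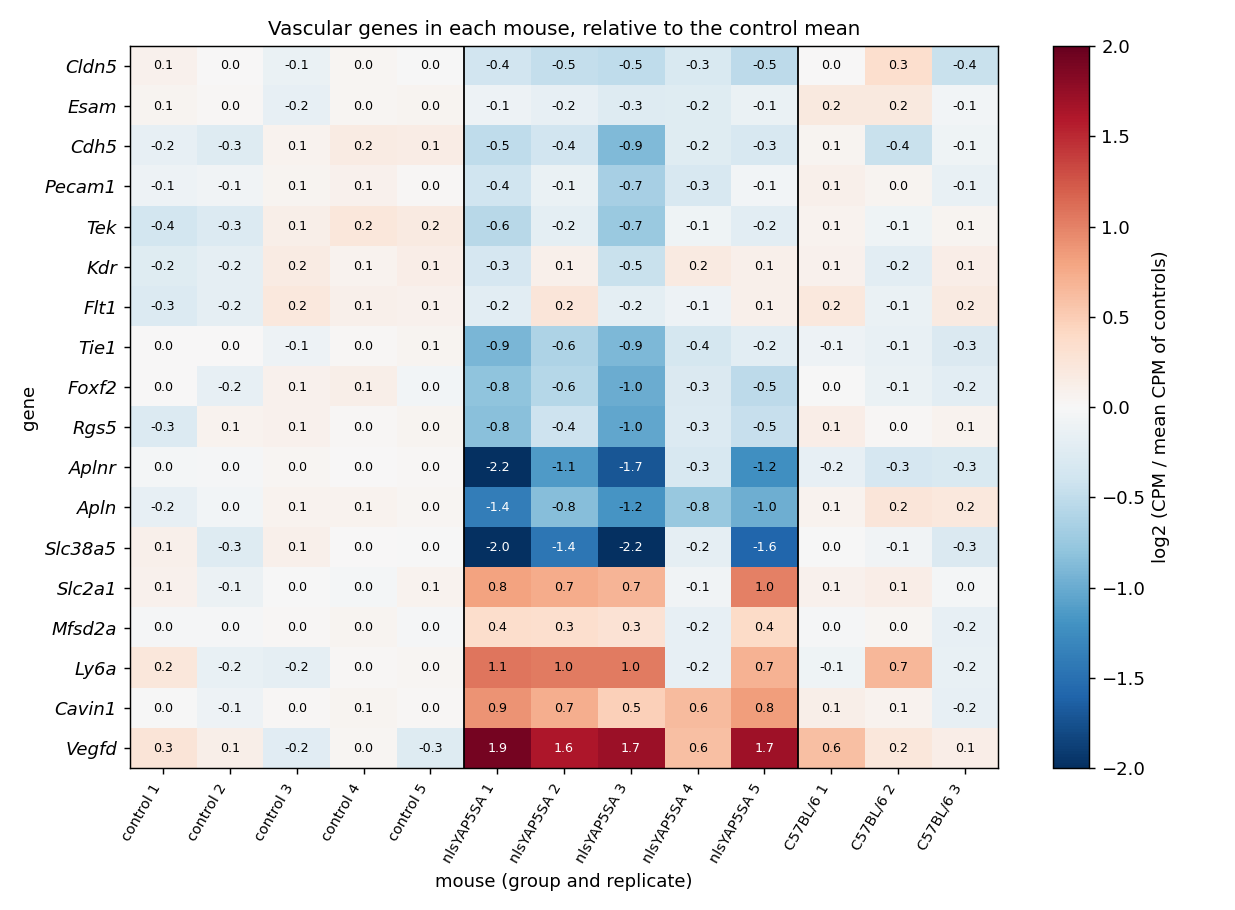
Log2 ratio of each mouse's CPM to the mean CPM of controls (colour, from -2 to 2, values printed in the cells) for the 10 endothelial genes and 8 other vascular genes picked after their values were seen (rows), in the 13 mice (columns). nlsYAP5SA replicate 4 is at -0.07 for Slc2a1 and -0.32 for Aplnr, where the other nlsYAP5SA mice are at 0.68 or more and at -1.14 or less.

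The genes whose levels followed the mean of the 10 endothelial genes most closely over the 13 mice were ranked by Pearson's r among the 12088 genes whose counts averaged 100 or more. The highest was Cd93 (r = 0.942), followed by Col3a1 (0.903), Snrk (0.903), Nos3 (0.899), Rgs5 (0.897), Lama4 (0.896), Foxf2 (0.894), Vcam1 (0.892), Angptl2 (0.888) and Slc16a6 (0.887). Of these, 5 stand in a vascular list. The points are whole hemispheres that share the group difference and the library, and the values are a description. Over the 10 control and nlsYAP5SA mice 3 of the 10 closest genes stand in such a list, and 1 does when the group means are removed.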

How the data were processed

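The authors sequenced mRNA libraries (KAPA mRNA HyperPrep kit) from right hemispheres on an Illumina HiSeq instrument, mapped reads with STAR to GRCm38 and deposited estimated counts per gene from RSEM, neither normalized nor filtered. RSEM shares reads among near-identical genes. A strand setting is not given in the sources used here. All 13 columns were used and grouped by genotype in the labels.

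Estimated counts were rounded. edgeR 4.0.16 (R 4.3.3, limma 3.58.1) with TMM and filterByExpr (minimum count 10, minimum total 15) gave two-sided quasi-likelihood tests between the groups compared, Benjamini-Hochberg adjusted over all genes tested and called at 0.05 or less. Fold changes are from these fits, and CPM uses TMM factors over 13 samples. DESeq2 1.42.0 was an alternative. Python 3.11.15, pandas 2.3.3, numpy 2.4.6 and matplotlib 3.10.9 were used for summaries. Positions and exon lengths are from GENCODE M21, a later annotation than the one the authors counted on. The closest genes were found on log2 (CPM + 0.5). The script was tested on simulated data.

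The labels name separate samples, and p-values measure the spread between them. Totals of 20871566 to 25524349 limit precision. Reads are not molecules, so this covers counting error only. The members and lists were chosen with earlier results of these data known. Named genes were the 10 members, up to 4 called genes of each vascular list by size of change (the 2 most abundant where none was called) and the 10 closest genes. Vegfa, Plvap, Cav1, Sox18, Vwf, Pdgfrb, Wnt7a and Wnt7b were picked after their values were seen. Alternatives were other scalings, filters, tests and covariates, a fit of all samples, a block for the replicate number and leaving out each mouse.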

Additional observations from a re-analysis of the deposited data

Results flagged for a closer look

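Among 94 groups of 5 mice, over 47 genes, 5 held a mouse that stood apart from the other 4 by Dixon's test at the 95% level, and chance flags about 1 in 20 such groups. Mfsd2a was at 29.0 CPM in nlsYAP5SA replicate 4, where the others were at 39.9 to 42.4 CPM. Vegfd was at 2.22 CPM in the same mouse, where the others were at 4.52 to 5.56 CPM. Esam was at 16.2 CPM in control replicate 3, against 18.3 to 18.8 CPM in the others. Ehd4 was at 19.0 CPM in nlsYAP5SA replicate 5, against 16.9 to 17.4 CPM. Rgs5 was at 184 CPM in control replicate 1, against 226 to 235 CPM. Over all 16943 genes kept in the 13 samples, control replicate 1 stood apart in 376 genes (2.22%) and nlsYAP5SA replicate 4 in 324 (1.91%), the highest shares of the 10 mice.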

How the results depend on the processing

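Of 210 values of the 10 endothelial genes under alternatives, 185 kept direction and side of the threshold, 13 lost a call, 4 gained one and 8 turned sign. The count called in nlsYAP5SA against control, 4, was 1 with the Y-linked level as a covariate, 0 among libraries with Y-linked RNA (added after the data were seen) and 3 to 5 when each mouse was left out. Of all genes 10.8% were called in the main fit and 3.32% and 1.97% in the Y-linked fits. With a mouse left out the share was 7.34% to 11.5%. Against C57BL/6, where none of the 10 was called, the count was 1 when scaled to the endothelial identity list and 4 by DESeq2. It was 3 with all 13 samples in a single fit, 1 with the Y-linked covariate and 0 to 3 with a mouse left out. Those fits called 5.19%, 9.59%, 8.98%, 5.01% and 2.37% to 10.4% of all genes, in place of 6.38%. The count for the other vascular genes against control, 38 in all, was 14 with the Y-linked covariate, 9 among libraries with Y-linked RNA and 28 to 44 with a mouse left out. The shares of all genes in these fits are those given above against control. With the choroid plexus covariate Kdr was at 0.01 and Flt1 at 0.00, and with a mouse left out they ranged from -0.13 to 0.02 and from -0.09 to 0.03. Genes without overlap, 2 in all, numbered 4 by library size alone and 2 to 5 with a mouse left out, the 5 being without nlsYAP5SA replicate 4. The share over all genes was not computed for these settings. With fewer mice any gene is less likely to overlap, so these counts do not single out the 10 genes. The length of the longest transcript put controls at 7.73 (Pecam1), 8.19 (Kdr), 6.63 (Flt1), 12.8 (Slc2a1), 15.2 (Mfsd2a) and 9.7 (Esam) CPM per kilobase. The closest genes in a vascular list, 5, were 3 over 10 mice and 1 with group means removed. Of 37 named vascular genes, 9 kept their call in every alternative run. Same-numbered controls and nlsYAP5SA mice deviated together in 2 of 5 pairs, by a correlation over 0.1 (0.312, -0.162, -0.315, -0.089 and 0.114 for pairs 1 to 5), and 1 of the 5 nlsYAP5SA mice correlated best with its own number, so the numbers do not pair mice. With the replicate number as a block the count of the 10 genes called was again 4, with Aplnr at -1.29 and Slc2a1 at 0.64. That fit called 7.59% of all genes in place of 10.8%, and 9 of the 37 named vascular genes lost their call. The causes were not tested. The Y-linked fits rest on 2 nlsYAP5SA mice with Y-linked RNA, replicates 3 and 4, so a lost call there does not show that a gene did not differ.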
